A study of Mus musculus with 3 samples.

Results

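The Schlafen genes of the mouse form a cluster on chromosome 11, and the 7 members Slfn1, Slfn2, Slfn3, Slfn4, Slfn5, Slfn8 and Slfn9 were taken by their symbols in the GENCODE M1 annotation of the mm9 assembly, out of 37252 annotated genes on chromosomes 1 to 19 and X. The cluster ran from the first base of Slfn5 to the last base of Slfn3, chr11:82764851-83028656, and the Ser5 peaks between the genes were described with it. Schlafen proteins share a divergent AAA-type domain, and the longer ones carry a helicase-like part at their end. Several of the genes are known in macrophages and T cells as genes that respond to type I interferon, the antiviral cytokine that macrophages make when Toll-like receptors are engaged, and individual Schlafen proteins have been linked to quiescence of T cells, to myeloid differentiation and to restriction of viruses. Pol_II is the RNA polymerase that makes messenger RNA, and phosphorylation of serine 5 in the repeats of its tail (Ser5) marks polymerase that has started transcription, so that the mark is usually densest at promoters.

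Bone marrow cells of female Fvb mice were grown in L929-conditioned medium and used as macrophages on the 7th day of differentiation. The 3 libraries were a Ser5 ChIP-Seq library from untreated macrophages, a Ser5 library from macrophages given 10 ng/ml LPS (lipopolysaccharide, the bacterial outer membrane component sensed through Tlr4) for 2 h, and input DNA from untreated macrophages, which is chromatin sequenced without the antibody. The libraries held 7616771, 6249819 and 7533308 uniquely aligned tags on chromosomes 1 to 19 and X, with tags of 45, 30 and 36 bases. Each condition was a single library, so nothing measures the spread between cultures, no p-values are given, and the 95% intervals cover counting error only. A level is given as tags per 1000000 library tags per kb of the region, and a ratio is the LPS library over the untreated library after scaling each to its total. Of 10 macrophage marker genes 9 were found under these symbols, with a median untreated level of 12.1, whereas the medians of 6 lymphocyte markers and of 6 markers of other lineages were 0.108 and 0.126, below their input medians of 0.543 and 0.417. Of these 9 macrophage markers 5 were at 0.5 times their untreated level or less after LPS, among them Csf1r and Lyz2 with 3883 and 3994 untreated tags and 1430 and 1328 LPS tags. The ratio was 2 or more for 2 of them, Cd14, which went from 620 to 1617 tags, and Emr1, from 2107 to 5202. A ratio of 2 or more was seen for 1 of the 4 lymphocyte markers with at least 20 tags (Ms4a1, with 13 untreated and 34 LPS tags below 115 in the input) and 0 of the 5 other lineage markers.

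The promoters of the members carry short strings that some of them share, and stretches from 160 bases before to 20 bases after the RefSeq start of each gene are given 5′ to 3′ on the gene's own strand. They are RefSeq promoter sequences of GRCm38.p6, each of which had 1 exact match on chromosome 11 of mm9, from which the mm9 positions were taken. In the first set the capitals mark an ISRE-like motif, the element bound by interferon-activated factors, searched on both strands as GAAA, 2 free bases and GAAA.
Slfn5, chr11:82765444-82765623, plus strand: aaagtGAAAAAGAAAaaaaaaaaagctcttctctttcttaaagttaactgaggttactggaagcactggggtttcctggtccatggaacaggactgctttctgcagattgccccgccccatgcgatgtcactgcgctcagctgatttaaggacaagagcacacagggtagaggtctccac
Slfn9, chr11:82805313-82805492, minus strand: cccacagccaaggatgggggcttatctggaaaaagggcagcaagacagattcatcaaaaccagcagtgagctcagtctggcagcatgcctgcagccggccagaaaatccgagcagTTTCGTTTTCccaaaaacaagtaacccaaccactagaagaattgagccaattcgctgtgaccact
Slfn8, chr11:82834293-82834472, minus strand: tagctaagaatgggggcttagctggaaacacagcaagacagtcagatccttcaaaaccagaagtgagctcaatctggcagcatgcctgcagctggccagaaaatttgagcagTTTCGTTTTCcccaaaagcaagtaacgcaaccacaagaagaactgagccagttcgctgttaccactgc

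In the second set, that of the other 4 members, the capitals mark the longest string that all 4 stretches shared, 9 bases, which was looked for after the sequences had been read out, so that this set is fixed by the search.
Slfn2, chr11:82878454-82878633, plus strand: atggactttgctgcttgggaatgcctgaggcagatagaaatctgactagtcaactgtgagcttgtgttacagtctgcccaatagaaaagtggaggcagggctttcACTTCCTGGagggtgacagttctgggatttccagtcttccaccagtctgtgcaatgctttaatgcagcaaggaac
Slfn1, chr11:82930162-82930341, plus strand: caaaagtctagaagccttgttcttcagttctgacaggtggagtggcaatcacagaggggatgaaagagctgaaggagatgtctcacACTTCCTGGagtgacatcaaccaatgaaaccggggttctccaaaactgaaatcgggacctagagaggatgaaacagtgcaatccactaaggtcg
Slfn4, chr11:82988528-82988707, plus strand: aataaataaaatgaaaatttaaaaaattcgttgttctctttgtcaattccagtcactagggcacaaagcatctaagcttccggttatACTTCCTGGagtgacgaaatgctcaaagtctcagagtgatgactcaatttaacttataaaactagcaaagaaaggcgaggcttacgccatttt
Slfn3, chr11:83004672-83004851, plus strand: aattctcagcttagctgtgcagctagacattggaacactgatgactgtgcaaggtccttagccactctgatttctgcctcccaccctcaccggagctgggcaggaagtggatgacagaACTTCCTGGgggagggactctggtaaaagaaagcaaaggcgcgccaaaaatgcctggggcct

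The ISRE-like motif was present in the 300-base promoter windows of 3 of 7 members, Slfn5, Slfn8 and Slfn9, and in 3.44% of all 32851 RefSeq windows. In Slfn9 and Slfn8 it read GAAAACGAAA on the strand opposite to the gene, ending 36 and 39 bases before the start, and in Slfn5 it began 155 bases before the start, at the front of a run of A. The GAS motif (TTCNNNGAA, the element of STAT dimers) and the NF-kB motif (GGG, 2 free bases and TTTCC) were in the windows of 0 of 7 members, against 8.30% and 1.63% of all windows. The PU.1 motif (GAGGAA, both strands), which is short and stood in 28.3% of all windows, was in that of Slfn9 alone. ACTTCCTGG began between 74 and 42 bases before the start in Slfn1, Slfn2, Slfn3 and Slfn4, was not in the stretches of Slfn5, Slfn8 and Slfn9, and was in 0.563% of all windows cut to the same 180 bases, on either strand. These matches are descriptions of the sequence and do not show that a factor was bound.

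In the 300-base promoter windows Slfn8 and Slfn9 were 84.9% identical over 292 aligned bases. The other pairs of members were between 51.9% and 67.3% identical, with pairs inside and across the sets printed above in that range. These identities leave out gaps and unaligned ends, and the other pairs had from 152 to 266 aligned bases. The identity of unrelated promoters by this measure was not tested. Among the proteins, Slfn8 and Slfn9 were each 910 residues long and 85.8% identical, and their coding sequences were 92.7% identical. Slfn3 and Slfn4, of 517 and 602 residues in the annotation, were 90.5% identical over 507 aligned residues, whereas Slfn1 and Slfn2, the shortest at 337 and 378 residues, were 55.3% identical. Slfn5, of 884 residues, stood apart, with 43.4% identity to Slfn9 as its highest value among the members. The authors kept tags with a unique match, so copied sequence loses tags, and more so with shorter tags. A 30-base sequence, as long as an LPS tag, had more than 1 place in the genome at 28.6% of the positions of Slfn9, 24.4% of Slfn8 and 29.6% of Slfn3, but at 14.2% of Slfn4, 8.64% of Slfn2, 3.96% of Slfn5 and 1.63% of Slfn1. At 45 bases, the length of the untreated tags, the shares of Slfn9, Slfn8 and Slfn3 were 15%, 11.8% and 18.9%. These shares count exact copies only, but alignment allowed up to 2 mismatches. With copies of up to 2 mismatches within the cluster or its 50 kb flanks counted, the 30-base shares were 61.0%, 48.1% and 45.3%. At 45 bases they were 43.6%, 32.1% and 31.9%. These 3 genes were thus read less completely after LPS than before it. With the tags of every library limited to those whose first 30 bases occur once in the genome, the LPS to untreated ratios over the gene bodies of Slfn9, Slfn8 and Slfn3 were 3.29, 2.63 and 1.81, close to the values with all tags below. This filter took out exact copies only. Whether near copies shift the ratios was not tested.

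**Figure D1:**
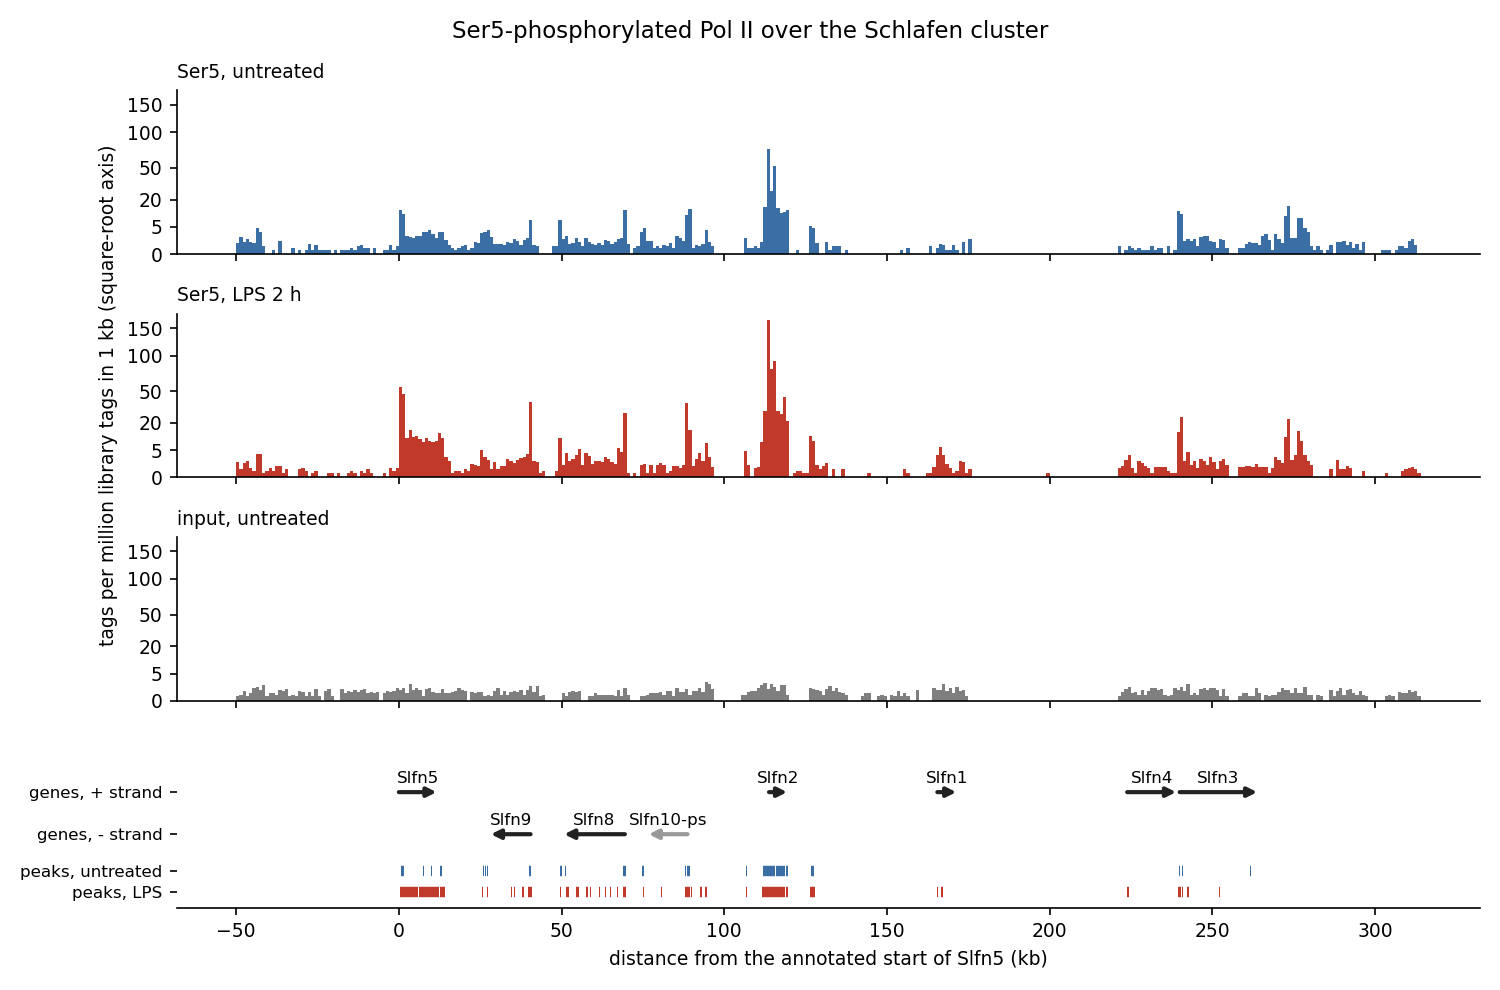
Ser5 and input tags per 1000000 library tags in 1 kb windows (square-root axis) over the cluster and 50 kb on each side, with the 7 members as black arrows, Slfn10-ps as a grey arrow and the deposited peaks of each Ser5 library as bars. The highest windows of both Ser5 libraries lie over Slfn2, the windows over Slfn5 are raised along the whole gene after LPS, and the stretch between Slfn1 and Slfn4 is nearly empty in the 3 libraries.

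Slfn2 carried most of the Ser5 of the family before LPS. Its gene body (chr11:82878614-82884180) held 1170 tags in the untreated library, 2160 after LPS and 57 in the input, which was a level of 27.6, 62.1 and 1.36. Slfn2, whose inactivation is known to cost T cells and monocytes their quiescence, thus took 54.6% of the Ser5 tags of the 7 gene bodies in untreated cells and 46.1% after LPS. Among all 22350 protein-coding genes its level ranked 157th before and 57th after LPS. In a whole culture, more cells with Ser5 at a gene and more Ser5 per cell cannot be told apart. The ratio was 2.25 (2.09-2.42) over the gene body and 2.43 (2.22-2.65) within 1 kb of the start, where 749 tags became 1491 over 17 in the input. The change was not even along the gene, in parts of it chosen after the profile had been seen. Between 1.5 and 2 kb from the start, where the untreated library had a second summit, 336 tags became 429 (ratio 1.56, 1.35-1.80), whereas the part from 2 kb to the transcript end went from 369 to 748 tags (ratio 2.47, 2.18-2.81), and these intervals did not overlap. The protein-coding genes outside the cluster whose gene body levels lay nearest to those of Slfn2 in the 2 Ser5 libraries were Klf6, Med11 and Gm17268, at distances of 0.312, 0.317 and 0.385 on the log2(level + 0.1) scale, with levels of 22.3 and 64.2, 28.3 and 49.9, and 31.7 and 78.1 in untreated and LPS cells.

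Slfn5 had the broadest gain. Its gene body (chr11:82764851-82776443) went from 365 to 1259 tags, with 71 in the input, a level of 4.13 before and 17.4 after LPS and a ratio of 4.20 (3.74-4.74). The gain was as large in the gene as at its start, since the ratio was 4.22 (3.37-5.31) within 1 kb of the annotated start and 4.17 (3.63-4.80) from 1 kb onwards. It went on past the transcript end, where the next 5 kb went from 70 to 204 tags (ratio 3.55, 2.69-4.73). The peaks showed the same spread, covering 17.6% of the gene body in untreated cells and 93.6% after LPS. Tags stood away from the annotated start, with 1 and 3 of them in its first 250 bp in the untreated and LPS libraries against 95 and 342 between 0.5 and 1 kb, and the RefSeq start lay 753 bp downstream of it. Around the RefSeq start, 179 tags became 605 (ratio 4.12, 3.48-4.89). The antisense transcript 1700003F17Rik (Slfn5os in RefSeq) overlaps most of Slfn5 on the other strand, and ChIP-Seq does not show the strand of transcription, so the 2 genes cannot be told apart where they overlap. Around the start of the antisense transcript, inside Slfn5, 58 tags became 122 (ratio 2.56, 1.86-3.57).

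Slfn1 and Slfn4 had the lowest Ser5 levels of the members before LPS. Slfn1, the founding member of the family, described as slowing the growth of thymocytes, had 16 untreated tags, 87 after LPS and 43 in the input over its gene body (chr11:82930351-82936172). Slfn4, a gene of the myeloid lineage, had 24, 88 and 75 (chr11:82988688-83003723). In untreated cells both were below the input when scaled to library totals, at 0.368 (0.194-0.667) and 0.317 (0.191-0.507) times its level. Scaled to the tags outside peaks they were at 0.700 (0.368-1.27) and 0.602 (0.363-0.964) times, so that the interval of Slfn1 then held 1. Their levels of 0.361 and 0.210 were of the order of the lymphocyte markers, which reached from 0.0726 to 0.927. After LPS, Slfn1 was at 2.44 (1.67-3.60) times the level of the input and Slfn4 at 1.41 (1.03-1.95) times. This excess was not seen over the whole genes. From 2 kb after the start to the transcript end, Slfn1 was at 0.855 (0.472-1.53) times the input after LPS. Slfn4 was there at 1.07 (0.738-1.56) times, and both intervals hold 1. The gene body ratios of LPS to untreated cells were 6.63 (3.86-12.1) for Slfn1 and 4.47 (2.82-7.34) for Slfn4. Within 1 kb of the start, 2 tags became 36 at Slfn1 and 3 became 31 at Slfn4, with 11 and 16 in the input. These were ratios of 21.9 (5.65-188) and 12.6 (3.93-64.4), with wide intervals over few untreated tags. Neither gene had a deposited peak in the untreated library, and after LPS Slfn1 had 2 peaks and Slfn4 had 1 peak, that of Slfn4 at chr11:82988642-82989305 over its start.

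Slfn9 and Slfn8 both had more tags after LPS at the start and further in, with a higher ratio for Slfn9 at the start. Slfn9 (chr11:82793131-82805332) went from 118 to 298 tags with 54 in the input, and Slfn8 (chr11:82815660-82834312) from 205 to 434 with 48. The gene body ratios were 3.08 (2.48-3.84) and 2.58 (2.18-3.06), and these intervals overlapped. Within 1 kb of the start, Slfn9 went from 69 to 257 tags (ratio 4.54, 3.47-6.01) and Slfn8 from 114 to 199 (ratio 2.13, 1.68-2.70), and here the intervals were apart. From 1 kb downstream to the transcript end there was a ratio of 1.77 (1.32-2.39) for Slfn9, from 79 to 115 tags, and of 2.61 (2.12-3.21) for Slfn8, from 138 to 295 tags, and these intervals overlapped. The Slfn8 gene body had 12 peaks after LPS and 3 in untreated cells, against 4 and 1 for Slfn9. The promoters of this pair, given above, differ little in sequence, and 48.1% of the positions of Slfn8 and 61.0% of those of Slfn9 had a copy elsewhere, either exact or within the cluster and its 50 kb flanks with up to 2 mismatches at 30 bases.

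Slfn3 had the lowest ratio of the members. Its gene body (chr11:83004832-83028656) went from 246 to 358 tags with 102 in the input, a ratio of 1.77 (1.5-2.09), and the window within 1 kb of its start from 177 to 241, a ratio of 1.66 (1.36-2.03). Slfn3, a close relative of Slfn4 and known from T cells and the gut epithelium, was the member that stayed under the rule of size used here, a ratio of at least 2 over at least 20 tags in the 2 Ser5 libraries. The window around its start held a steady and a rising part, as seen after the profile had been drawn. The 1 kb before the start went from 91 to 73 tags, a ratio of 0.978 (0.709-1.35), while the 1 kb from the start went from 86 to 168, a ratio of 2.38 (1.83-3.12), and these intervals were apart. Most tags of the steady part, 87 untreated and 67 after LPS, lay in the last 250 bp before the start of Slfn3 (ratio 0.939, 0.672-1.31). The steady part lay within the 1.11 kb between the end of Slfn4 and the start of Slfn3. ChIP-Seq does not by itself tell polymerase at the end of one gene from that at the start of the other.

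**Figure D2:**
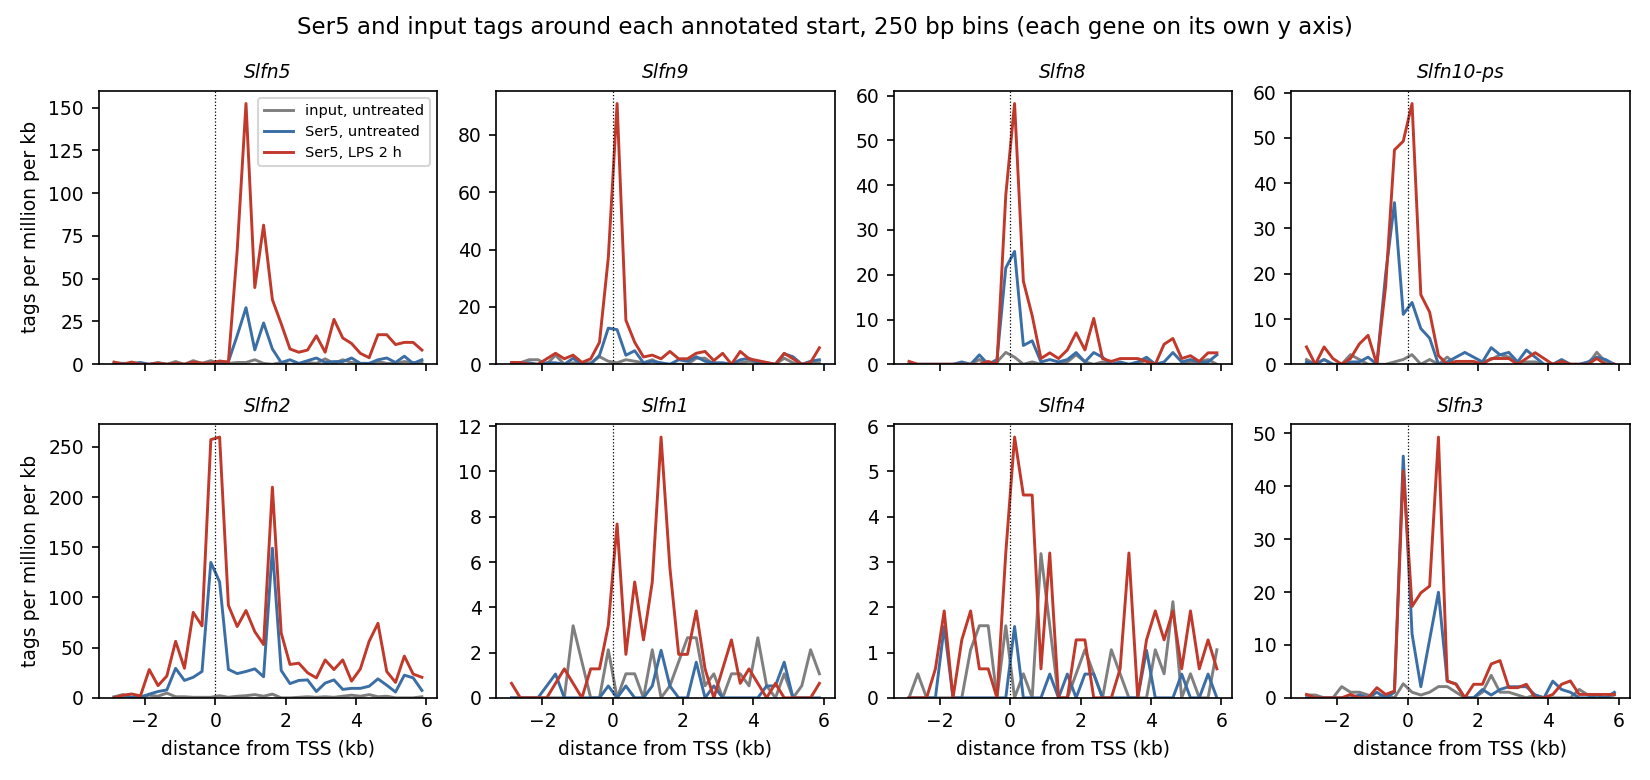
Tags per 1000000 library tags per kb in 250 bp bins from 3 kb before to 6 kb after the annotated start of each gene (dotted line), each gene on its own vertical axis and read in its direction of transcription. The Ser5 summits of Slfn5 lie downstream of its annotated start, Slfn1 and Slfn4 rise above the input after LPS only, and the bin just before the start of Slfn3 is at 45.7 in untreated cells and 42.9 after LPS.

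By the rule of size 6 of 7 members were higher over the gene body after LPS and 0 lower, whereas among the 16214 protein-coding genes with at least 20 tags 5.25% were higher and 10.6% lower. All 7 members had at least 20 tags. Within 1 kb of the start the count was again 6 of 7, with Slfn3 the exception, against 4.37% of 11418 genes higher and 13.1% lower. The median ratio of the members was 3.08 over gene bodies and 4.22 at starts, while the medians of all genes with at least 20 tags were 0.873 and 0.829. Summed over the 7 gene bodies, 2144 tags became 4684 (ratio 2.66, 2.53-2.80). In order of the gene body ratio the members were Slfn1, Slfn4, Slfn5, Slfn9, Slfn8, Slfn2 and Slfn3. No gene was apart from its neighbour in this order, the intervals of Slfn2 and Slfn3 meeting at 2.09, but Slfn5 was apart from Slfn8 and Slfn2. In order of the level after LPS they were Slfn2 at 62.1, Slfn5 at 17.4, Slfn9 at 3.91, Slfn8 at 3.72, Slfn3 at 2.40, Slfn1 at 2.39 and Slfn4 at 0.936, so the member with the highest level had the second lowest ratio.

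**Figure D3:**
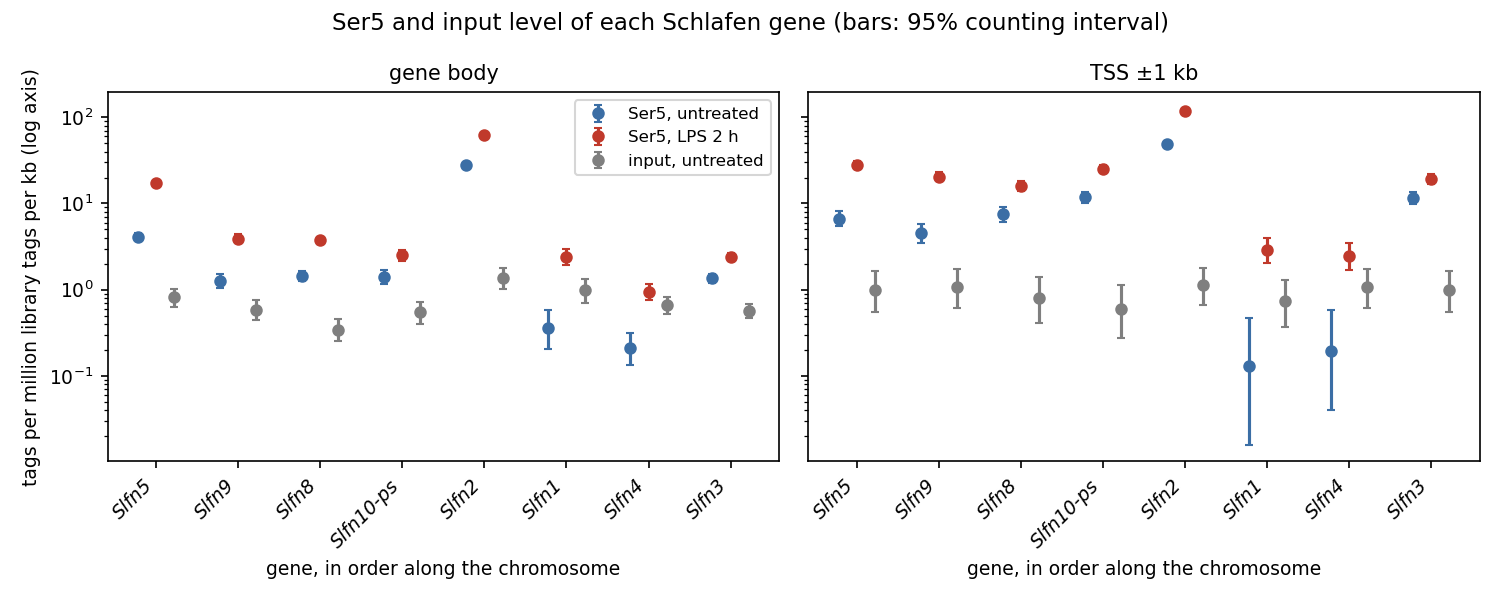
Level of each gene in the 3 libraries over the gene body (left) and within 1 kb of the start (right), in tags per 1000000 library tags per kb on a log axis, with 95% counting intervals. The untreated points of Slfn1 and Slfn4 lie below their input points, and Slfn2 is the highest gene in both Ser5 libraries.

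**Figure D4:**
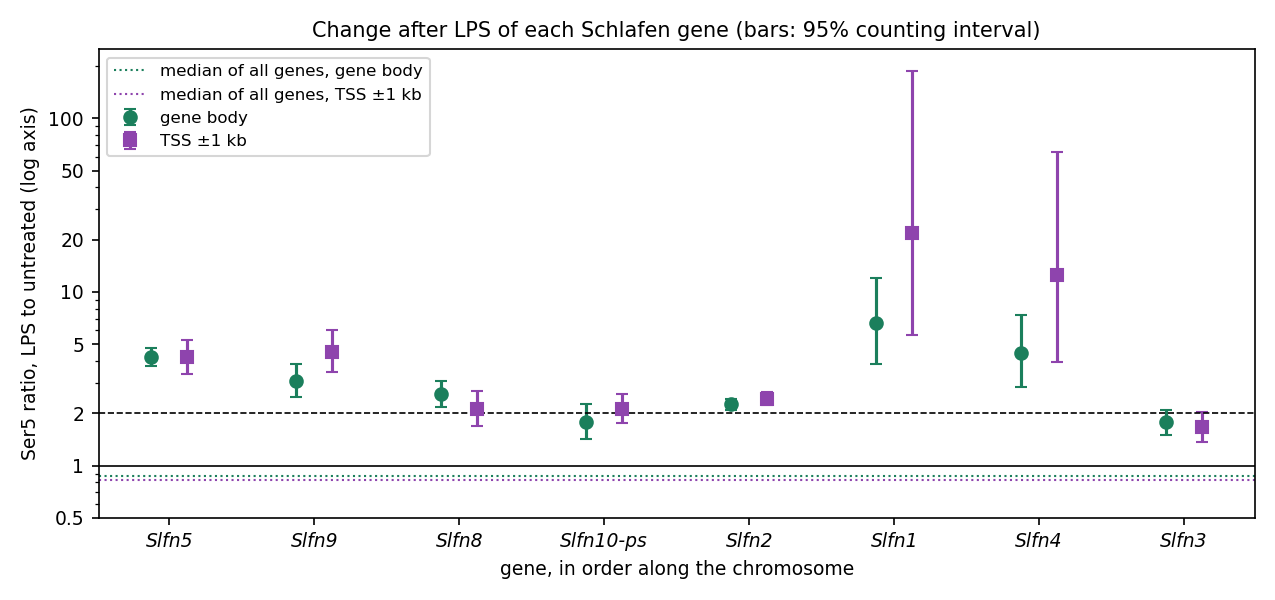
Ratio of the LPS to the untreated Ser5 library (log axis) over the gene body (circles) and within 1 kb of the start (squares), with 95% counting intervals. The dashed line is a ratio of 2 and the dotted lines are the medians of all genes, 0.873 and 0.829, and every Schlafen gene lies above these medians with its whole interval.

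The genes beside the members differed in their values. Slfn10-ps (chr11:82841632-82853544), annotated as protein-coding in GENCODE M1 although its symbol names a pseudogene, lies between Slfn8 and Slfn2 and is 85.7% and 87.2% identical in protein to Slfn8 and Slfn9. Its start window went from 179 to 313 tags with 9 in the input (ratio 2.13, 1.77-2.58), but from 1 kb to its transcript end 76 tags became 53 (ratio 0.850, 0.587-1.22). Within its start window the 1 kb upstream went from 127 to 178 tags (ratio 1.71, 1.35-2.16) and the 1 kb downstream from 52 to 135 (ratio 3.16, 2.28-4.45). The gene body of Nle1, a ribosome assembly factor before the cluster, had 109 and 81 tags (ratio 0.906, 0.671-1.22). The gene body of Unc45b, a myosin chaperone of muscle next to Slfn5, had 47 and 50 tags with 117 in the input (ratio 1.30, 0.853-1.97). The intervals of Nle1 and Unc45b hold 1. On the other side of the cluster, past Slfn3, the transcript AI662270 had 178 and 206 tags over its gene body (ratio 1.41, 1.15-1.73) and 140 and 159 within 1 kb of its start (ratio 1.38, 1.10-1.75), intervals that lie above 1 and below 2.

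Of a list of 34 interferon-stimulated genes, 30 were higher over the gene body by the rule of size and 0 lower, beside the 5.25% and 10.6% of all genes, with a median ratio of 5.04. The list was chosen with earlier results of these data known, so its count, range and median are no independent yardstick. The 3 with the largest ratios were Ccl5, a chemokine, with 24 and 7801 tags (ratio 396, 266-619), Rsad2, which encodes viperin, with 205 and 15243 (ratio 90.6, 79.0-105), and Cxcl10, a chemokine of the interferon response, with 55 and 4016 (ratio 89.0, 68.2-118). The 3 with the smallest were Irf9, a subunit of the factor ISGF3, at 1.64 (1.49-1.81), the 2′-5′ oligoadenylate synthetase gene Oas2 at 1.69 (1.53-1.85) and Ifi35 at 1.69 (1.5-1.90). The 7 Schlafen ratios, from 1.77 to 6.63, all lay within the range of this list, and 6 of them, all but that of Slfn1, lay below its median.

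The deposited peaks that overlapped the cluster by at least 1 bp numbered 32 of 53524 in the untreated library and 49 of 49438 after LPS, and covered 6.59% and 15% of its bases. Of the 32 untreated peaks 90.6% overlapped an LPS peak, whereas 42.9% of the 49 LPS peaks met an untreated one. Over chromosomes 1 to 19 and X these shares were 54.3% and 56.6%. Of the LPS peaks 27 lay in gene bodies outside the start windows, against 9 of the untreated ones, whereas 9 and 11 lay in start windows and 13 and 12 between the genes, Slfn10-ps being counted as a gene here. When peaks of both lists within 1000 bp were merged, 29 regions resulted, of which 12 held peaks of both lists, 15 of the LPS list alone and 2 of the untreated list alone. Of the 37344 regions merged in this way over the genome, 46.2% held peaks of both lists, 22.3% of the LPS list alone and 31.5% of the untreated list alone. Of the 15 regions of the LPS list alone 11 lay in gene bodies, 2 at starts (Slfn1 and Slfn4) and 2 between genes. Several of those in gene bodies lay in Slfn8 alone, with from 0 untreated and 6 LPS tags to 24 and 65. Where there were untreated tags, the gene body ratios of these regions ran from 1.07 (8 and 7 tags, in Slfn3) to 8.53 (1 and 7 tags, in Slfn10-ps). In the LPS list alone, 80.1% of the regions of the genome with at least 20 tags reach a ratio of 2. These ratios are thus no measure of a gain, and that of 8.53 rests on 1 untreated tag.

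Between the genes there were 8 such regions, and they did not follow the genes evenly. Past the ends of Slfn9, Slfn8 and Slfn10-ps, which lie side by side on the minus strand, the midpoint of a region was 1.73, 1.11 and 1.73 kb beyond the transcript end. The region past Slfn9 (chr11:82790478-82792332) had 67 untreated tags, 52 after LPS and 5 in the input (ratio 0.946, 0.646-1.38). It held 1 match to the GAS motif and 2 to the PU.1 motif, which stood in 42.6% and 83.3% of windows of its length on LPS peaks. The region past Slfn8 (chr11:82814241-82814851) had 58, 64 and 0 tags (ratio 1.34, 0.928-1.95), and the region past Slfn10-ps (chr11:82839563-82840249) had 43, 13 and 2 tags (ratio 0.368, 0.182-0.698). From 1 kb past the start to the transcript end the genes they follow had ratios of 1.77 (1.32-2.39) for Slfn9, 2.61 (2.12-3.21) for Slfn8 and 0.850 (0.587-1.22) for Slfn10-ps. The interval of the region past Slfn8 lay below that of its gene, and the intervals of the other 2 regions overlapped those of their genes. The regions past Slfn8 and past Slfn10-ps were copies of each other, 88.0% identical over 577 aligned bases, and their ratios were apart. At 30 bases, as in the LPS tags, 17.5% of positions past Slfn8 and 21.6% past Slfn10-ps held a sequence found more than once in the genome, near copies not being counted. At 45 bases, as in the untreated tags, these shares were 2.62% and 3.64%, so both copies were read less completely after LPS. Whether the ratios of the 2 copies differ for this reason was not tested. The start of the longest gap-free part of their alignment is given on the plus strand, and the capitals mark the 8 of 120 positions at which they differ.
past Slfn8, chr11:82814257-82814376: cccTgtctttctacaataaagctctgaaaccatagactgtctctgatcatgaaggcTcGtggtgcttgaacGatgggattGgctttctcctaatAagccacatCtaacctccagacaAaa
past Slfn10-ps, chr11:82839564-82839683: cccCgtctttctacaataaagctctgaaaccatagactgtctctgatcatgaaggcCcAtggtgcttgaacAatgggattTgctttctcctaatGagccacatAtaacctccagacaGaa

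In the 25.1 kb between the starts of Slfn10-ps and Slfn2, which face away from each other, 678 tags became 1258 (ratio 2.26, 2.06-2.49), of which 127 and 178 lay in the 1 kb before the start of Slfn10-ps and 379 and 693 in the 1 kb before that of Slfn2. The 3 peak regions of this stretch and 1 beyond the end of Slfn2 had ratios of 2 or more. Those of the first 2 are no measure of a gain, since these regions were in the LPS list alone, where 80.1% of the regions of the genome with at least 20 tags reach a ratio of 2. The other 2 were in both lists, where 7.11% do. The first, chr11:82857315-82857883, 4.06 kb upstream of the start of Slfn10-ps, had a peak after LPS only, with 0 untreated tags, 24 after LPS and 7 in the input. The lower limit of the interval of its ratio was 7.34. The motifs searched in the promoters were also searched in every region between genes. This region held 1 match to the PU.1 motif, which stood in 46.1% of windows of 568 bases centred on the LPS peaks of the genome. It held 2 matches to the NF-kB motif, while 3.10% of these windows held at least 1. They stand in capitals in the 150 bases printed here, on the plus strand, where both read as the reverse complement of the motif.
upstream of Slfn10-ps, chr11:82857615-82857764: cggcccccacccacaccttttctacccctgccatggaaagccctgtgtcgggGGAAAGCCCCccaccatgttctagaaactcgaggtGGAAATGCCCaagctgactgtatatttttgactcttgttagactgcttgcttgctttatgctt

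The second, chr11:82858893-82859566, had 25, 44 and 15 tags (ratio 2.14, 1.28-3.66), and its untreated level was 1.65 (0.836-3.36) times that of the input. It holds the stretch chr11:82859072-82859501 that the study cloned for reporter assays, placed here by exact match of the cloning primers, of which the capitals are the part that matches the genome. In these 430 bp 22 untreated tags became 35 with 15 in the input (ratio 1.94, 1.11-3.47).
sense primer: cgggtacCTCCGGAGATACTCCATTTATGC
antisense primer: cggagctcAAAGGCTTGGCAATGTATGC

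The third region, chr11:82871457-82871764, 7.00 kb upstream of Slfn2, had 14, 29 and 2 tags (ratio 2.52, 1.29-5.17), and the fourth, chr11:82891125-82892615, 7.69 kb past the end of Slfn2, had 72, 120 and 15 tags (ratio 2.03, 1.5-2.76). The fourth held 2 matches to the ISRE-like motif, 3 to the GAS motif and 2 to the PU.1 motif. These motifs stood in 18.8%, 35.8% and 76.8% of windows of its length on LPS peaks. The interval of the gene body ratio of Slfn2, 2.09 to 2.42, lay within those of both regions. The last region, chr11:82940043-82940184, 3.94 kb past the end of Slfn1, was in the untreated list alone, with 12 tags becoming 3 (ratio 0.305, 0.0552-1.13), and 81.6% of its positions held a sequence of 30 bases that occurs more than once in the genome, against 70.9% at 45 bases.

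**Figure D5:**
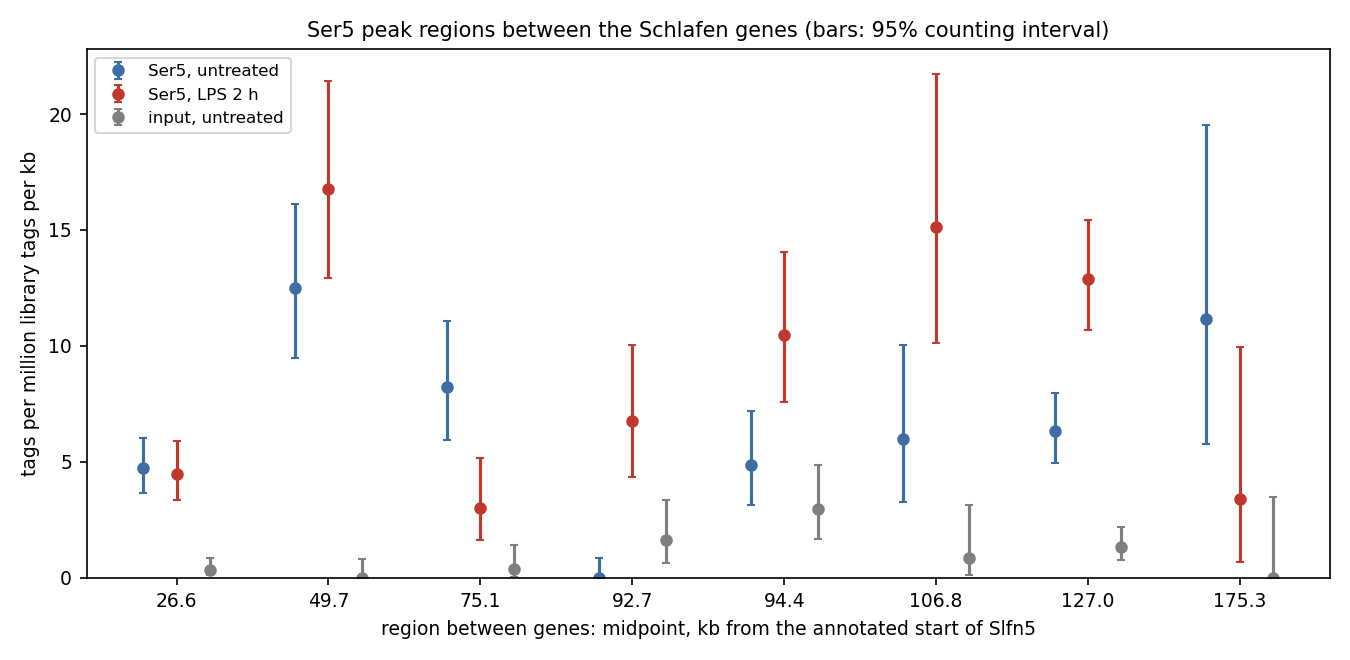
Level of the 8 peak regions between the genes in the 3 libraries, in tags per 1000000 library tags per kb with 95% counting intervals, placed in order by the distance of their midpoint from the annotated start of Slfn5. The first 3 regions, past the ends of Slfn9, Slfn8 and Slfn10-ps, have overlapping or falling Ser5 points, and the next 4 have a higher point after LPS.

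The gap of 52.5 kb between Slfn1 and Slfn4 held 24 untreated tags, 44 after LPS and 30 in the input. Of its positions 90.9% carried a 30-base sequence that occurs more than once in the genome, so Ser5 over most of this gap could not be read with uniquely aligned tags. The gap of 46.2 kb between Slfn2 and Slfn1, with 49.3% of such positions, held 147, 247 and 115 tags, and 72 and 120 of its Ser5 tags were those of the region past Slfn2.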

How the data were processed

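The authors mapped the reads to mm9 with Bowtie (unique alignments, up to 2 mismatches) and called peaks with MACS (p-value below 1e-05), each Ser5 library being set against the input. Tool versions are not given in the sources used here. The deposited tag files list the coordinates and strand of every tag, duplicates included. Each peak of the deposited lists has a score, minus 10 times the log10 of its p-value. The methods state the tag lengths of the Ser5 libraries the other way round from the files, and those of the files are given here.

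Tags were counted by their 5′ end over GENCODE M1 gene bodies and within 1 kb of starts, and scaled to library totals. Ratios have exact intervals conditional on the sum and levels exact Poisson intervals. The named genes were the members, the protein-coding genes within 50 kb, the 3 genes nearest to the member with the most LPS tags, and the 3 largest and 3 smallest ratios of the interferon list. Csf1r, Lyz2, Cd14, Emr1, Ms4a1, AI662270 and the transcript antisense to Slfn5 were chosen after their values were seen. Members and lists were chosen with earlier results of these data known. Repeated sequence was counted over the whole assembly, and proteins were translated from the longest GENCODE M1 coding sequence and aligned with BLOSUM62. Python 3.11.15, numpy 2.4.6, pandas 2.3.3, scipy 1.17.1, numba 0.67.0, Biopython 1.88 and matplotlib 3.10.9 were used, and the counting was tested on simulated data. The alternatives were duplicate tags counted once, a shift of 75 bp, tags whose first 30 bases occur once, scaling to tags outside peaks, other windows, at least 50 tags and stricter peaks, and RefSeq starts were added after the data had been seen.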

Additional observations from a re-analysis of the deposited data

How the results depend on the processing

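With 1 library per condition no replicate could be left out. No paired analysis was possible because each group had 1 library and no result came from a test. No member ratio changed direction under any alternative. The count of 6 members over gene bodies became 5 when the first 1 kb was left out, Slfn9 falling to 1.77, and the count of 6 at starts became 5 within 500 bp, where Slfn5 fell to 1.71, and 4 with at least 50 tags, which Slfn1 and Slfn4 did not reach. It stayed 6 in each of the other alternatives, the RefSeq starts included. Within 500 bp the median ratio at starts, with Slfn5 at 1.71, was 2.23 in place of 4.22. For Slfn5 that window lies around the annotated start and stops short of the RefSeq start, 753 bp downstream, and it held few tags. The first 250 bp after the annotated start held 1 untreated and 3 LPS tags, and around the RefSeq start the ratio was 4.12 (3.48-4.89). Scaled to tags outside peaks, the median Ser5 level over the input rose from 2.39 to 4.54 over untreated gene bodies, from 6.65 to 13.6 after LPS, from 6.73 to 12.8 at untreated starts and from 19.4 to 39.6 after LPS, while untreated Slfn1 moved to 0.700 (0.368-1.27), an interval that holds 1, and untreated Slfn4 to 0.602 (0.363-0.964). Peaks with a score of at least 100 numbered 21 in place of 32 in untreated cells and 31 in place of 49 after LPS. Depth limits Slfn1 and Slfn4, whose untreated starts held 2 and 3 tags, and unique alignment limits the copied genes and the gap between Slfn1 and Slfn4.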
